A study of Mus musculus with 20 samples.

Results

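The cytosolic ribosomal protein genes encode the protein part of the ribosome, the particle that translates messenger RNA in the cytosol. They were taken from the deposited table by their symbols: Rps or Rpl followed by a number and at most a short suffix, together with Rpsa, Rplp0, Rplp1 and Rplp2. Pseudogene symbols with -ps and the Rps6k kinase genes were left out. The rule found 82 of the 16810 genes of the table. These were 45 genes of the large (60S) subunit, 31 genes of the small (40S) subunit and 6 paralogs that stand beside a parent gene (Rpl22l1, Rps27l, Rpl7l1, Rpl10l, Rpl39l and Rps4y2). Rpl26 was not analysed here.

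The study asked how microglia, the resident macrophages of the central nervous system, respond over time to spinal cord lesions of different severity. All mice were adult heterozygous male CX3CR1+/eGFP animals on a C57BL/6 background, in which 1 copy of the Cx3cr1 gene is replaced by the reporter, so that every group, the controls included, carries only 1 working copy. Cells with high eGFP were sorted from a segment of spinal cord around a thoracic lesion, and their polyadenylated RNA was sequenced after amplification. There were 3 samples of non-injured mice (NI). Of mice with a lateral hemisection (HS) 3 samples were taken 72 h post-lesion, 2 after 1 week and 3 after 2 weeks, and of mice with a full transection (FT) 3 per time point. The reporter is active in peripheral monocytes as well as in microglia, and the study pooled animals within a sample, so that p-values measure the spread between these pools.

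A ribosome is built from a fixed number of copies of each of its proteins, and the genes of both subunits are generally expressed together. Most of their mRNAs, and those of the translation elongation factors, begin with a run of pyrimidines at the 5' end (the TOP motif) through which mTOR signalling controls their translation. The level of these mRNAs, which was measured here, is another quantity than their translation. Among immune cells, growth and division come with more ribosome production.

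The following windows show the start sites of members whose values are given further on. Each window holds the 40 bases before and the 20 bases from the RefSeq start of the gene (build GRCm38.p6), read 5' to 3' on the gene's own strand, with the longest run of C and T in capitals.
Rpl15 (chr14:18270967-18271026, minus strand): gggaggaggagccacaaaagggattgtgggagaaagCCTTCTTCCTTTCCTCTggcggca
Rps25 (chr9:44407674-44407733, plus strand): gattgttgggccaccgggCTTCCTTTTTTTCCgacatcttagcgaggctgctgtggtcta
Rps6 (chr4:86857348-86857407, minus strand): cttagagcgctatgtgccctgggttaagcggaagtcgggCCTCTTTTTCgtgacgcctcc
Rplp2 (chr7:141447611-141447670, plus strand): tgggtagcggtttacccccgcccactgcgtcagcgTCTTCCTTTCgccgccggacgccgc
Rpl22l1 (chr3:28805468-28805527, plus strand): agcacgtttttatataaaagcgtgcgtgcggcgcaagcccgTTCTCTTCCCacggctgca
Rpsa (chr9:120127726-120127785, plus strand): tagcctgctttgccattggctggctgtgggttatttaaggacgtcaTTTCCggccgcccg
Rps2 (chr17:24720023-24720082, plus strand): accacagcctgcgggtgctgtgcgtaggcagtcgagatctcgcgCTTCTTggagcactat
Rpl41 (chr10:128549149-128549208, minus strand): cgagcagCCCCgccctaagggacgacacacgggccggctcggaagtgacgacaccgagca
The first 5 hold a run of at least 8 pyrimidines and the last 3 do not. A run was sought anywhere in the 60 bases, so it need not be the TOP motif at the 5' end of the mRNA. That of Rps25, for example, lies wholly before the start. Where a gene has more than 1 listed start, any of them counted. A member without such a run is not shown to lack the motif. Of the 82 members, 61 had a promoter sequence, and 36 of these (59.0%) held such a run within the 60 bases, compared with 27.2% of all 27025 genes with a promoter sequence and 27.3% of the 12260 of them that are in the table. Within 300 bases around the start and on both strands, CCGGAA, the core of the site bound by ETS factors, was present in 34 members (55.7%) and in 26.2% of the table genes. AAGATGGC, a site of YY1, was present in 6 members (9.84%) and in 4.48%, and TATAAA, the TATA box, in 7 members (11.5%) and in 10.3%. The median log2 fold change from NI at 72 h after HS was 1.28 in the 36 members with a run and 1.31 in the 25 without one, and the medians differed most at 1 week after FT (0.99 and 1.11), where 18 of the 36 and 20 of the 25 were DE.

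Depth lay between 3.87 and 34.1 M reads per sample. The values are normalised counts, reads divided by a library size that the authors corrected with an edgeR factor, so that columns need not share 1 total. The columns summed to between 777426 and 830481 in NI and between 878070 and 1202190 after injury. A gene set that keeps its share of the RNA thus has a higher normalised count after injury, and results are given on the deposited scale and with every column scaled to 1 total. The 9 markers of microglia summed to 19249 to 27659 in NI and to 14786 to 30453 after injury. Csf1r, the receptor for the microglial growth factor CSF1, had group means of 6113 to 7997. P2ry12, a receptor typical of resting microglia, had 4223 in NI and 1954 to 2898 after injury, whereas Aif1 (IBA1) had 575 in NI and 741 to 1156 after injury and Itgam (CD11b) had 996 and 1085 to 1664. The summed normalised counts of the 7 monocyte markers were 29.8 to 37.9 in NI, 76.5 to 156 at 72 h after HS, 115 to 275 at 72 h after FT and 41.9 to 96.5 at the later times. Ccr2, a chemokine receptor of monocytes, had a mean of 17.99 in NI, 72.0 at 72 h after HS and 97.1 at 72 h after FT, while Ly6c2, which marks the same cells, had group means of at most 4.64. Neuron markers (7 genes) summed to 36.2 to 71.6 in NI and 12.4 to 37.9 after injury. The 11 immediate-early and heat shock genes, which respond to handling, summed to 4936 to 7571 in NI and 2407 to 3444 at 72 h. At 1 and 2 weeks they summed to 5602 to 5778 and 1849 to 8826 after HS and to 839 to 4388 and 890 to 7061 after FT. Over the 3 times, 3, 0 and 0 of them were DE and lower after HS and 4, 3 and 0 after FT. Of all genes 4.31, 0.482 and 0.797% were lower and DE after HS and 4.09, 1.2 and 1.36% after FT. The 10 proliferation genes summed to 123 to 136 in NI, 839 to 1423 at 72 h and 139 to 256 later. The part of these cells and of handling in the results below was not tested. Fewer cells of a type and less RNA per cell cannot be told apart in such bulk samples.

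The libraries fell into 2 sets that the labels do not name and that were found after the values were seen. Fth1, which encodes the heavy chain of the iron store ferritin, lay between 413 and 1400 in 8 libraries and between 3472 and 9114 in the other 12. Rpl13, a protein of the 60S subunit, split in the same way. In the 8 libraries it had 93.6 to 335 normalised counts, and in the 12 it had 671 to 1651. Each group held 1 library of the low set, except FT 1 week with 2 (replicates 1 and 3). The low libraries of the other groups were NI replicate 3 and replicate 2 of HS 72 h, HS 1 week, HS 2 weeks and FT 72 h, and replicate 3 of FT 2 weeks. With the set as a further term in limma, the low set was lower by 2.95 (SE 0.13, adjusted p = 1.87e-12) on the log2 scale for Rpl13, the only DE member between the sets, and over all genes 162 were lower and 0 higher in it. The median of the 82 members was 0.30 higher in the low set (all genes 0.01). The cause of the sets was not tested, and the values of each set are given beside the results that rest on them.

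**Figure D1:**
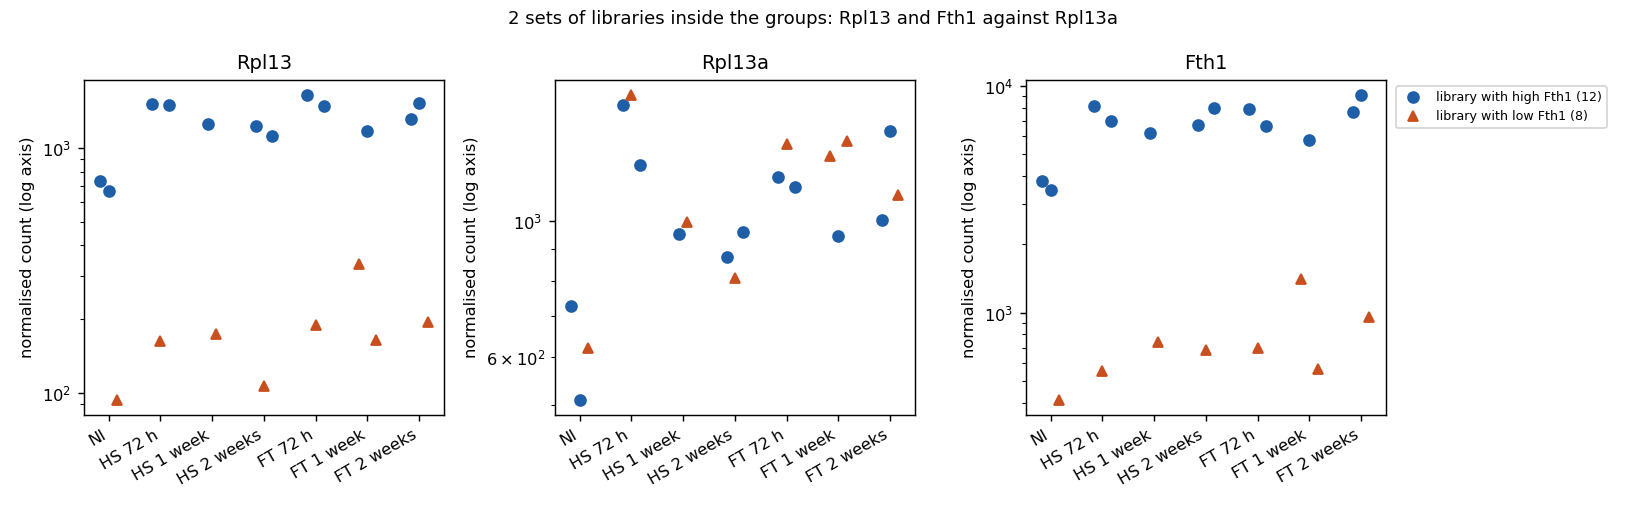
Normalised counts of Rpl13, Rpl13a and Fth1 in the 20 libraries by group, each on its own log axis, with circles for the 12 libraries with high Fth1 and triangles for the 8 with low Fth1. Rpl13 and Fth1 separate the sets without overlap, whereas Rpl13a, another 60S gene, does not.

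Ribosomal protein genes took a larger share of the RNA in every injured library than in any NI library. Their normalised counts summed to 4.27, 3.71 and 4.45% of the column in the 3 NI samples (4.14% ± 0.387, SD, n = 3). This share does not depend on how a column is scaled. The HS samples had 7.16, 7.96 and 6.73% at 72 h (7.28% ± 0.626, SD, n = 3), 5.55 and 6.50% at 1 week (6.02% ± 0.672, SD, n = 2) and 5.41, 5.71 and 5.67% at 2 weeks (5.60% ± 0.160, SD, n = 3). The FT samples had 6.22, 8.47 and 6.14% at 72 h (6.94% ± 1.32, SD, n = 3). Their share at 1 week was 9.34, 5.31 and 7.60% (7.42% ± 2.02, SD, n = 3), and at 2 weeks 5.69, 7.46 and 7.18% (6.78% ± 0.950, SD, n = 3). The 17 injured libraries lay between 5.31 and 9.34%, all above the NI libraries, and the mean shares were 1.35 to 1.79 times that of NI. The groups after HS did not overlap between 72 h and the later times, whereas the FT groups spread widely and overlapped at all times. The highest share of each group except FT 2 weeks was that of a library with low Fth1. Within the low set the share was 4.45% in the 1 NI library and 5.71 to 9.34% in the 7 injured ones (median 7.60%), and within the high set it was 3.71 and 4.27% in NI and 5.31 to 7.46% in the 10 injured ones (median 5.92%). Since no injured library overlapped NI in the whole series, the same order within each set follows from this and is no further test.

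**Figure D2:**
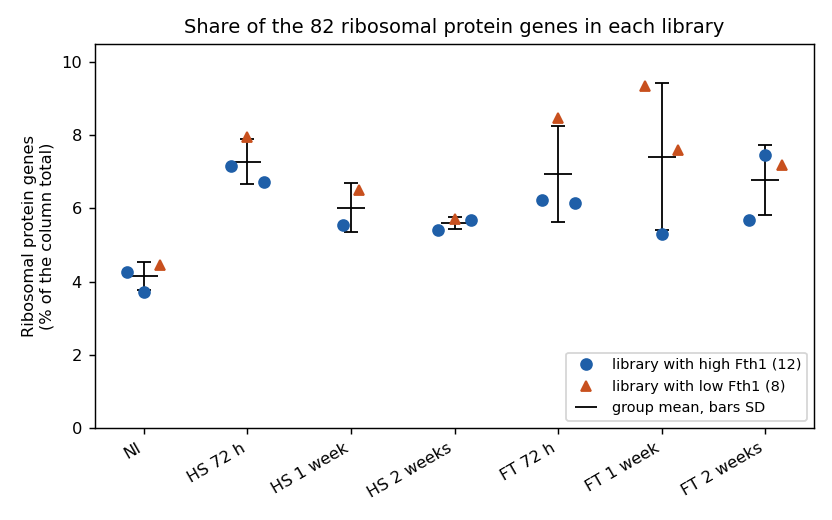
Share of the 82 ribosomal protein genes in the column total of each of the 20 libraries (%, linear axis from 0), with the group mean and SD in black, circles for libraries with high Fth1 and triangles for those with low Fth1. All 17 injured libraries, from 5.31 to 9.34%, lie above the 3 NI libraries.

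Both subunits contributed. The 40S genes made up 38.8 to 41.6% of the 40S and 60S sum in the 20 libraries, and 40.1 to 41.6% of it in NI. On the deposited scale the median log2 fold change from NI was 1.26 for the 60S and 1.32 for the 40S genes in the HS samples of 72 h. It was 0.77 and 0.68 in those of 1 week and 0.75 and 0.74 in those of 2 weeks. After FT these pairs were 1.20 and 1.21, then 1.17 and 1.07, then 1.09 and 1.08.

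To find which members differed from NI, each was tested in limma across all genes, with DE genes defined as by the study (adjusted p under 0.05 and at least 2-fold). Most members were higher after both injuries at 72 h and after FT also at the later times. Few reached 2-fold at the later times after HS, and none was DE in the other direction. The early HS samples had 68 DE members of 82, all higher, where 9.08% of all genes were higher and DE, and the early FT samples had 60 (8.14% of all genes). FT had 54 at 1 week (2.86% of all genes) and 57 at 2 weeks (3.53%). HS had 7 at 1 week (1.7% of all genes) and 2 at 2 weeks (2.43%). Lower members numbered 0 in all 6 comparisons by limma, edgeR and DESeq2, both as DE genes and at an unadjusted p under 0.05, where 4.31, 0.482 and 0.797% of all genes were lower and DE after HS and 4.09, 1.2 and 1.36% after FT. With the adjusted p alone and no fold limit, 75, 11 and 32 members were higher after HS and 73, 67 and 73 after FT, against 16.4, 2.07 and 3.84% and 14.8, 5.11 and 6.21% of all genes. The median member had a log2 fold change of 1.27, 0.70 and 0.73 in the successive HS groups, that is 2.40-, 1.62- and 1.66-fold, and of 1.19, 1.10 and 1.07 after FT (2.29-, 2.14- and 2.10-fold). Over all genes the medians lay between -0.11 and 0.02. The comparisons share the same NI samples. The count at 72 h after FT was 35 without replicate 2, and the count at 2 weeks after FT was 32 without NI replicate 2 and 36 without FT 2 weeks replicate 2.

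Every injured sample lay above every NI sample for 76, 74 and 73 of the 82 members after HS at the 3 times (24, 20.2 and 14.5% of all genes), and for 78, 72 and 74 after FT (22.2, 11.4 and 17.3% of all genes). All 17 injured samples lay above all 3 NI samples for 70 members, against 4.94% of all genes, and for 43 members with every column scaled to 1 total, against 2.12% of all genes. Rpsa and Rpl3 were DE in all 6 comparisons with NI, 36 members were DE in 4 of them and 10 in none. The comparisons share the NI samples, so repeated calls are not independent. The shares of all genes DE in as many comparisons are not given, so these counts only describe the members.

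The share of these differences that goes with the column scale was large. With every column scaled to 1 total, 17, 0 and 0 members were DE after HS and 12, 10 and 1 after FT, against 3.68, 1.29 and 1.46% and 3.69, 1.4 and 1.71% of all genes. With the adjusted p alone there were 66, 6 and 2 members after HS and 59, 52 and 47 after FT, against 8.45, 1.61 and 2.2% and 7.79, 2.77 and 3.15% of all genes, and none was lower by adjusted p. Median log2 fold changes were then 0.76, 0.49 and 0.41 after HS and 0.72, 0.75 and 0.67 after FT, while the median of all genes moved to -0.52, -0.17 and -0.29 after HS and to -0.48, -0.32 and -0.36 after FT. At 1 week after FT the 10 DE members on 1 total became 1, and the median 0.55, without FT 1 week replicate 1, the library with the highest share. With the library set as a term on the deposited scale, 68, 4 and 2 members were DE after HS and 61, 43 and 58 after FT, all higher (9.24, 1.89, 2.56, 8.35, 3.03 and 3.65% of all genes). Against the NI libraries of its own set, each injured library had a median log2 difference of 0.67 to 1.50 in the low set and 0.68 to 1.32 in the high set, with 74 to 82 of the 82 members above NI.

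**Figure D3:**
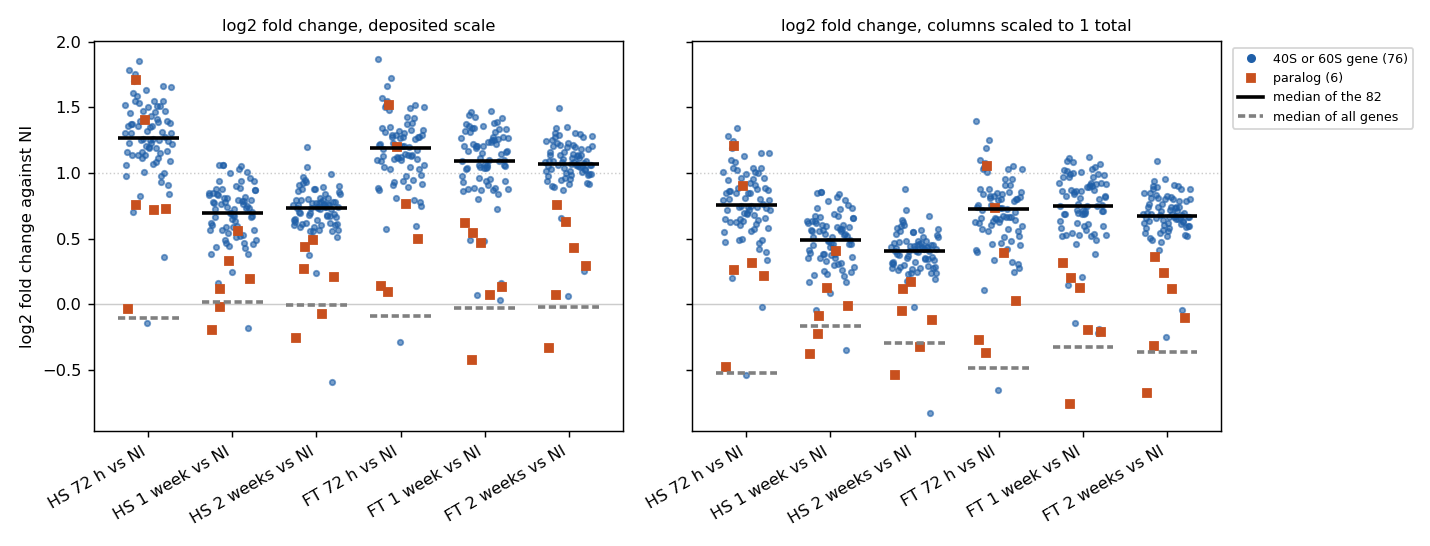
Log2 fold change against NI of each of the 82 members in the 6 comparisons, on the deposited scale (left) and with columns scaled to 1 total (right), with circles for the 76 subunit genes, squares for the 6 paralogs, a solid line at the median of the 82, a dashed line at the median of all genes and a dotted line at 2-fold. The median of the 82 members lies at 0.70 to 1.27 on the left and at 0.41 to 0.76 on the right, above the median of all genes in every comparison.

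The members that rose most at 72 h were proteins of both subunits. Rpsa encodes a 40S protein that is also known as the laminin receptor (chr9:120127689-120132369, GRCm38, plus strand). It had 557, 598 and 757 normalised counts in NI, 2030, 2989 and 1972 at 72 h after HS, and 1776, 2573 and 1997 at 72 h after FT. No injured library overlapped NI, and the log2 fold change was 1.86 after HS (SE 0.24, adjusted p = 8.97e-06) and 1.73 after FT (SE 0.24, adjusted p = 2.41e-05, limma). Later after HS Rpsa had 1146 and 1524 (1 week) and 1364, 1277 and 1759 (2 weeks), with log2 fold changes of 1.06 and 1.20. Later after FT it had 2027, 1245 and 1947 (1 week) and 1540, 2007 and 1821 (2 weeks), with log2 fold changes of 1.43 and 1.49. Rpsa was the member with the largest rise in all 3 HS groups and at 2 weeks after FT.

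Rpl15, a 60S protein of the core of the subunit (chr14:18267823-18271391, minus strand), had 314, 291 and 366 in NI and 1121, 1355 and 910 at 72 h after HS, a log2 fold change of 1.79 (SE 0.21, adjusted p = 1.56e-06). Rpl41, the smallest ribosomal protein (chr10:128548114-128549305, minus strand), had 898, 699 and 859 in NI and 2658, 3142 and 2461 at 72 h after HS, a log2 fold change of 1.75 (SE 0.25). Rps2, a 40S protein at the entry of the mRNA channel (chr17:24718116-24721929, plus strand), had 96.7, 126 and 112 in NI and 478, 350 and 401 at 72 h after FT, a log2 fold change of 1.87 (SE 0.32), the largest there. Early after HS Rps2 had 453, 188 and 380, with the lowest value in the library with low Fth1. The largest rises at 1 week after FT were those of Rpl19 (1.47) and Rpl10a (1.46), both 60S proteins, and at 2 weeks those of Rpsa and of the 40S protein Rps28 (1.35).

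The 7 DE members at 1 week after HS were Rpsa, Rpl3, Rpl10a, Rpl4, Rpl19, Rpl7a and Rplp0, with log2 fold changes of 1.00 to 1.06. Of these only Rpsa belongs to the 40S subunit. Rpl3, a 60S protein near the catalytic centre (chr15:80077791-80091868, minus strand), had 1109, 884 and 828 in NI, 1785 and 2130 at 1 week after HS and 1761, 1962 and 2062 at 2 weeks, with log2 fold changes of 1.06 (SE 0.25, adjusted p = 0.0198) and 1.04 (SE 0.22, adjusted p = 0.00613). Rpsa and Rpl3 were the 2 DE members at 2 weeks. The 7 members at 1 week lie near the 2-fold limit, and without NI replicate 2 or without either HS 1 week replicate 0 of them were DE. Rpl3 at 2 weeks after HS was no longer DE without NI replicate 3 (0.96) or HS 2 weeks replicate 3 (0.99).

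The stalk of the 60S subunit, which recruits the translation factors, is formed by Rplp0, Rplp1 and Rplp2, and its genes differed in size of change. Rplp0 (chr5:115559467-115563727, plus strand) had 740, 694 and 805 in NI and 2179, 2935 and 1939 at 72 h after HS, a log2 fold change of 1.64 (SE 0.21, adjusted p = 7.64e-06). Rplp1 (chr9:61913284-61914542, minus strand) had 620, 551 and 628 in NI and 875, 1134 and 942 at that time. The groups did not overlap, but the log2 fold change of Rplp1 was 0.71 (SE 0.25, adjusted p = 0.0378), under 2-fold, and after quantile normalization it was -0.0097. Rplp2 lay between them, with 308, 257 and 313 in NI, 580, 698 and 582 at 72 h after HS and a log2 fold change of 1.08. Rplp1 was DE in no comparison with NI, and at 1 week after HS its values of 640 and 705 gave a log2 fold change of 0.17.

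Other members were named for a known role, outside the ribosome or in disease among others. Whether they differ from the rest of the family was not tested. Rpl5 and Rpl11, which bind 5S rRNA and, when free, the p53 regulator MDM2, had log2 fold changes of 1.31 and 1.21 early after HS and of 1.06 and 1.00 in the FT samples of 2 weeks, all DE. Rps6, the target of the S6 kinases, had 844, 706 and 876 in NI and 2029, 2355 and 1650 at 72 h after HS, a log2 fold change of 1.30. Rps3, a 40S protein at the mRNA entry that is also known for DNA repair, had 1.38 at that time, and Rps19, the gene mutated most often in Diamond-Blackfan anaemia, 1.55. Rps14, a 40S protein lost in the 5q- syndrome, had 1.11, and Rps25, a 40S protein used by viral internal ribosome entry sites, had 1.40. Rps27a, made as a fusion with ubiquitin, had 1.35, Rpl38, known for the translation of Hox mRNAs, 1.15, Rpl10, which joins the 60S subunit late, 1.14, and Rpl13a, which leaves the ribosome in interferon-treated myeloid cells, 1.25. All 11 of these were DE at 72 h after HS. None of the 11 was DE at 1 week after HS, with log2 fold changes of 0.44 (Rpl10) to 0.87 (Rpl5).

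Per kb of the principal transcript in GENCODE, the highest members in NI were Rps29 (1787 normalised counts per kb), Rpl41 (1608), Rps9 (1482), Rplp1 (1202) and Rpl37a (1140). The lowest were Rpl34 (1.82), Rpl30 (2.17), Rpl39l (2.76), Rpl10l (2.91) and Rps27 (4.95). A low value need not mean low expression. Ribosomal protein genes have many processed copies in the genome, and the counting of reads that match more than 1 place could split or drop them. Of the 50-base stretches of the Rps27 transcript 98.6% are also found in transcripts of other genes, and 50.6% of those of Rpl34 and 47.8% of those of Rpl30. It was 53.5% for Rpsa, 79.0% for Rps2, 80.3% for Rpl13 and 22.4% for Rps27l. Over the 82 members the median was 52.5%, and 74 members had over 10%, so that levels of most members are uncertain. The 12 members with at most 20%, among them Rps3, Rpl4, Rpl22 and Rpl39, had median log2 fold changes of 1.21, 0.58 and 0.63 after HS and 1.13, 0.94 and 1.00 after FT, with 8, 1 and 0 and 8, 5 and 6 of them DE, all higher.

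Rps27 had 1.43, 2.06 and 1.63 normalised counts in NI and 1.12, 1.98 and 1.44 at 72 h after HS, with overlap, and its log2 fold changes of -0.15 and -0.29 at 72 h after HS and FT were the lowest of the family. Rpl30 had the lowest at 2 weeks after HS (-0.59, adjusted p = 0.385). Rpl13 had 737, 671 and 93.6 in NI and 1513, 162 and 1509 at 72 h after HS, so that its level followed the library set. Its log2 fold change there was 1.00 (SE 1.14, adjusted p = 0.536). With the set as a term it was 1.00 (SE 0.23, adjusted p = 0.00177), and it was 1.11 and 1.02 at 72 h and 2 weeks after FT (adjusted p = 0.000754 and 0.00355).

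The paralogs are given here beside their parents. Rps27l, a paralog of Rps27 that is known as a p53 target (chr9:66946086-66949516, plus strand), had 40.8, 37.6 and 44.7 in NI and 140, 152 and 116 at 72 h after HS. The HS samples of 1 week had 41.7 and 47.4, and those of 2 weeks 48.3, 65.6 and 54.0. It was DE at 72 h after HS, with a log2 fold change of 1.71 (SE 0.22, adjusted p = 5.31e-06), and had 0.12 at 1 week. Early after FT it had 92.4, 171 and 104 and a log2 fold change of 1.52 (SE 0.22), and it was not DE at the later times (0.54 and 0.76). Rpl22l1, a paralog of Rpl22 (chr3:28805436-28807424, plus strand), had 33.2, 28.2 and 31.0 in NI, 84.6, 86.4 and 76.1 at 72 h after HS, and 34.7 and 43.4 at 1 week. Its log2 fold change was 1.41 (SE 0.27) at 72 h after HS and 1.20 at 72 h after FT, where both were DE, and 0.33 to 0.63 in the 4 later groups, where it was not. Rpl22 itself had 1.14 and 1.12 at 72 h.

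Rpl7l1, a paralog of Rpl7, had 135, 118 and 101 in NI and 214, 210 and 165 at 72 h after HS. Its log2 fold change was 0.73, where that of Rpl7 was 1.25, and it was DE in no comparison. Rpl10l and Rpl39l, which are known from male germ cells, had means below 5 normalised counts in NI and were DE in no comparison, while Rpl10 and Rpl39 had log2 fold changes of 1.14 and 1.26 at 72 h after HS. Rps4y2, now Rps4l, which GENCODE lists as a transcribed processed pseudogene on chromosome 6, had 51.1, 37.2 and 11.7 in NI and 50.9, 40.8 and 53.7 at 72 h after HS. The groups overlapped, and it was DE in no comparison, with log2 fold changes of -0.42 (1 week after FT, with 2 low libraries of 3) to 0.76. It was lower by 0.99 in the library set with low Fth1 (SE 0.20, adjusted p = 0.00216, limma), and with the set as a term its log2 fold change at 1 week after FT was -0.09. Its parent Rps4x was DE at 1 week after FT alone of the 6 comparisons (1.10), with 0.67 to 0.99 in the others.

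**Figure D4:**
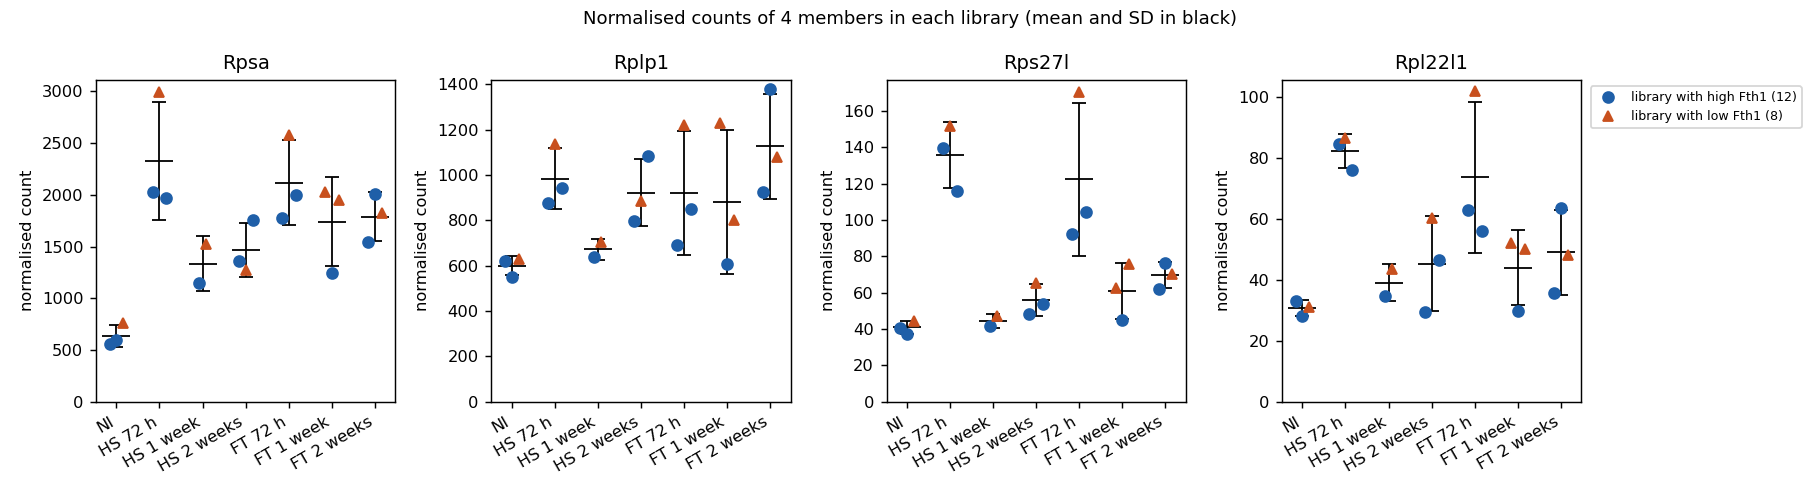
Normalised counts of Rpsa, Rplp1, Rps27l and Rpl22l1 in each library by group (linear axes from 0), with the group mean and SD in black, circles for libraries with high Fth1 and triangles for those with low Fth1. Rpsa lies above NI in all 17 injured libraries, Rplp1 overlaps NI at 1 week after FT, and Rps27l and Rpl22l1 are high at 72 h and near NI at 1 week after HS.

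To compare members with the family, columns were scaled to the sum of the 82 genes, so that a value is a part of the family. This scaling removes the common change of the family, so medians of its members near 0 follow by construction (-0.057 to -0.0015 in the 6 comparisons). With the adjusted p alone, 9, 2 and 2 members differed after HS and 9, 8 and 3 after FT, whereas 79, 25.6 and 42.2% and 75.9, 78.1 and 75.2% of all genes differed on that scale, on which genes outside the family fall by construction. Rpsa (0.53), Rpl15 (0.47), Rpl41 (0.43) and Rpl32 (0.38) rose against the family, and Rps4x (-0.42), Rps29 (-0.48), Rplp1 (-0.62), Rpl10l and Rps27 (-1.20 each) fell at 72 h after HS. Early after FT Rpsa (0.52) and Rpl41 (0.46) rose, and Rps21, Rps4x, Rps29, Rplp1, Rpl7l1, Rpl10l and Rps27 fell, by 0.40 (Rps21) to 1.26 (Rps27) on the log2 scale. At 1 week Rplp1 and Rps27l fell after HS, and after FT Rpl38, Rps27l, Rplp1, Rpl22l1, Rpl7l1, Rpl39l, Rpl30 and Rps4y2 fell. At 2 weeks Rpl10l and Rpl30 fell after HS, and Rpl7l1, Rps27 and Rpl10l after FT. Rpl10l, Rpl30, Rpl39l and Rps27 had fewer than 5 normalised counts in NI. In the 20 libraries the level of a member followed that of the rest of the family, with a median Pearson's r of 0.961 over the 82 members. In 64 members r was over 0.9. It was highest for Rpl17 (0.991) and Rpl32 (0.989) and lowest for Rps4y2 (-0.08), Rpl13 (-0.07) and Rps27 (0.11). These correlations describe libraries that share groups and column scale.

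To see whether severity made a difference, FT was compared with HS at the same time. By limma 0 members and 0% of all genes had an adjusted p under 0.05 at any of the 3 times, and edgeR and DESeq2 also gave 0 members by adjusted p alone. At an unadjusted p under 0.05 there were 0, 9 and 8 members at the successive times, each with more in FT (14 and 9 at the later times by the edgeR quasi-likelihood test, 16 and 12 by DESeq2). Of all genes 1.71, 1.72 and 1.36% were higher in FT at that p by limma. At the later times these shares were 2.05 and 1.15% by the edgeR quasi-likelihood test and 1.71 and 0.946% by DESeq2. The median of the members was -0.11, 0.40 and 0.36 on the log2 scale (all genes -0.01, -0.01 and 0.01), and 10, 77 and 79 of the 82 lay above 0 (47.7, 48.3 and 51.4% of all genes). Of the members above 0 at 72 h Rps2 stood highest, with 0.35 (SE 0.32), with 478, 350 and 401 after FT and 453, 188 and 380 after HS, which overlap. At 1 week Rpsa differed by 0.36 (SE 0.27), with 2027, 1245 and 1947 after FT and 1146 and 1524 after HS, which overlap as well. The median at 1 week was 0.26 on 1 total, and 0.070 there without FT 1 week replicate 1. Low libraries made up a larger part of FT than of HS at 1 week, and these medians were not corrected for the set.

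Over time 10 to 19 of the 82 members fell from 72 h after HS and 1 fell after FT, and the difference between the injuries in this change was not tested. Between 72 h and 1 week after HS the median change was -0.57, and 10 members were lower by adjusted p alone, where 6.76% of all genes were. Between 72 h and 2 weeks it was -0.57, and 19 members were lower (6.83% of all genes). On 1 total both medians were smaller (-0.28 and -0.38). Relative to the family they were -0.0025 and -0.0090, on a scale that removes the common change of the family by construction. After FT the median was -0.08 at 1 week and -0.14 at 2 weeks, and 1 member, Rps27l, was lower at each time (3.91 and 3.77% of all genes). FT 1 week held more libraries of the low set than FT 72 h or FT 2 weeks. The median member was 0.30 higher in that set, and these medians were not corrected for it. Between 1 and 2 weeks after FT the median was -0.01, and 0 members were lower by adjusted p (0.0238% of all genes), with 1 lower at an unadjusted p under 0.05 by limma. Rps27l had the largest fall from 72 h in all 4 comparisons. It was lower by 1.59 at 1 week after HS (SE 0.24, adjusted p = 0.000178) and by 1.27 at 2 weeks (SE 0.22, adjusted p = 0.000478), and after FT it was lower by 0.97 (SE 0.22, adjusted p = 0.00813) and 0.76 (SE 0.22, adjusted p = 0.0398). Rpl22l1 was lower by 1.07 at 1 week after HS (SE 0.30, adjusted p = 0.0274). These were the DE members over time, Rps27l at both times after HS and Rpl22l1 at 1 week. Of all genes 6.03 and 4.74% were DE in either direction at 1 and 2 weeks after HS, with 1.95 and 1.37% higher. Without replicate 1 or 2 of HS 72 h, or either replicate of HS 1 week, 1 member was DE at 1 week, and without HS 72 h replicate 3 there were 4. The proliferation genes summed to 867 to 1423 at 72 h after HS and to 164 to 256 at the later times, and to 839 to 1037 at 72 h after FT and 139 to 196 later. With every column scaled to 1 total, Rps27l was still DE at 1 and 2 weeks after HS (-1.30 and -1.09), and Rpl22l1 was not (-0.78).

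Other genes of translation were compared by lists written with the family in view. Beside the counts below, 9.08, 1.7 and 2.43% of all genes were higher and DE after HS and 8.14, 2.86 and 3.53% after FT. Gnb2l1 (now Rack1), a ribosomal protein whose symbol falls outside the rule and which encodes a scaffold on the 40S head, had 379, 336 and 437 in NI and 1050, 1434 and 924 at 72 h after HS. Of the 7 elongation factor genes, of which Eif5a was among those that split between the library sets, 5, 3 and 3 were higher and DE after HS and 4, 4 and 4 after FT, with medians of 1.70, 0.91 and 0.86 and of 1.32, 1.18 and 1.05. Eef1a1, which brings aminoacyl-tRNA to the ribosome, had 3621, 2880 and 2738 in NI and 10623, 10987 and 8467 at 72 h after HS, a log2 fold change of 1.70 (SE 0.28, adjusted p = 0.000132). Eef2, the translocation factor, had 830, 582 and 530 in NI and 2647, 2351 and 1923 at that time, with 1.85 (SE 0.24). Of 11 other genes listed for transcripts with a TOP motif, among them the non-coding Snhg1 and Gas5, 6, 2 and 2 were DE and higher after HS and 6, 3 and 2 after FT. Npm1, a nucleolar chaperone among them, had a mean of 265 ± 40.6 in NI and 872 ± 173 at 72 h after HS (SD, n = 3 each). Of the 33 initiation factors 13, 1 and 0 were DE and higher after HS and 12, 7 and 5 after FT, with medians of 0.37 to 0.72.

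Genes that build ribosomes had lower medians than the ribosomal protein genes. Of 58 ribosome assembly genes 3, 0 and 0 were DE and higher after HS and 2, 0 and 0 after FT, with medians of 0.17 to 0.39. At 72 h after HS and FT 9.08 and 8.14% of all genes were higher and DE, and at the later times 1.7 to 3.53%. Ncl, the nucleolar protein nucleolin, had 163 ± 13.5 in NI and 284 ± 26.5 at 72 h after HS (SD, n = 3 each), which gave a log2 difference of 0.80 (SE 0.18, adjusted p = 0.00203). Of 20 growth control genes 0 were DE in the 6 comparisons by limma, edgeR and DESeq2, and at an unadjusted p under 0.05 in limma 3 and 4 were lower at 72 h after HS and FT and 1 was higher at 2 weeks after FT. Their medians lay between -0.09 and 0.001. At the shares of all genes given above, few of 20 genes would be DE. Myc, a transcription factor that drives ribosome production, had 88.6, 92.1 and 53.2 in NI and 54.6, 76.1 and 80.8 at 72 h after HS, with overlap. Mtor had 29.2, 28.4 and 24.9 in NI and 26.6, 21.0 and 27.5 at that time, with overlap as well. Eif4ebp1 and Rheb were lower in the libraries with low Fth1 in every group. In the high set Eif4ebp1 had 23.1 and 23.3 in NI and 40.2 and 39.8 at 72 h after HS. Rheb had 26.6 and 32.4, then 67.3 and 50.4. In the low set Eif4ebp1 had 6.91 and then 8.20, and Rheb 23.5 and then 19.98. Results of this list with the set as a term are not given, so the counts of 0 do not show unchanged levels. The list of mitochondrial ribosomal proteins, 76 nuclear genes, had 23 members higher and DE at 72 h after HS and 12 after FT, with medians of 0.85 and 0.66, and at the 4 later groups 0 or 1 were DE and the medians were 0.06 to 0.33. On 1 total the medians of the assembly list lay between -0.25 and 0.05, of the initiation factors between 0.01 and 0.23, and of the mitochondrial ribosomal proteins between -0.15 and 0.34, while the elongation factors had medians of 0.53 to 1.19. The median of the assembly list was below 0 on that scale in all comparisons but that of 1 week after HS, and that of the mitochondrial list was below 0 at the later times and above 0 at 72 h.

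**Figure D5:**
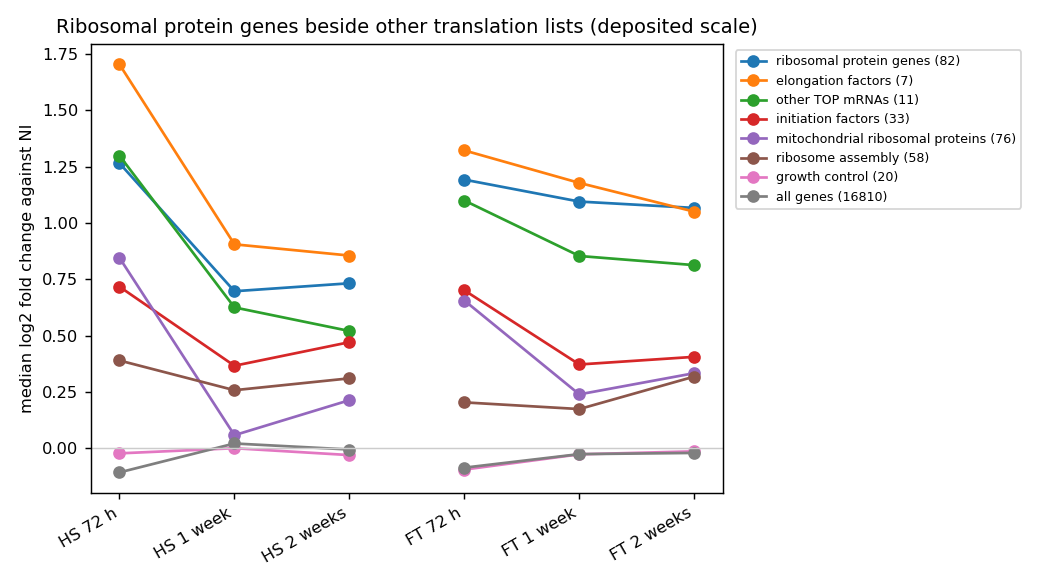
Median log2 fold change against NI (deposited scale) of the 82 ribosomal protein genes, 6 other lists and all genes at the 3 times after HS (left) and FT (right), with the number of genes of each list in the legend. The elongation factors lie at 1.70 and the ribosomal protein genes at 1.27 at 72 h after HS, the assembly and growth control genes lie lower at all times, and the mitochondrial ribosomal proteins lie at 0.85 and 0.66 at 72 h and at most 0.33 later.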

How the data were processed

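Microglia sorted from 20 pooled samples in 7 groups were profiled by RNA-seq. The authors trimmed reads, mapped them with TopHat 2.0.9 to mm10, counted reads per gene with HTSeq 0.5.4p3, kept genes above a read minimum and normalised by library size with edgeR 3.3.6. The deposited signal values are these normalised counts. No label states their unit. They proved to be whole multiples of 1 step per column: 336162 of the 336200 values (99.989%) were whole within 0.001 step, so that whole reads were recovered for edgeR 4.0.16 and DESeq2 1.42.0. Strandedness and sequencing batch are not given in the sources used here.

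limma 3.58.1 (intensity trend, R 4.3.3) was fitted to log2(value + 0.5) of all 16810 genes and all 20 samples with 1 mean per group, so that fold changes understate those of low genes. Benjamini-Hochberg adjustment ran over all genes. DE genes had an adjusted p under 0.05 and at least 2-fold change. Scalings, added values, filters, tests, a replicate block and left-out samples were tried as alternatives. The limma fit was tested on simulated reads of independent genes. These held no library sets and no common change of a family, so the test does not bear on those features. The 19 replicate pairs all differed by more than sampling noise. Intervals of counting error are not given, since the spread between replicates was larger.

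Members, lists and tests were chosen with earlier results of these data known. Members were named by level per kb (5 highest, 5 lowest), by size of change in each comparison, as paralogs with parents, and by role. Rpl13, Rpl17, Rpl32, Rps21 and Fth1 with the library sets were chosen after their values were seen. Gene models are GENCODE (GRCm38) and promoters RefSeq (GRCm38.p6). The 16 other symbols starting with Rps or Rpl were left out, and 21 members had no promoter sequence. A few items are not reported here.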

Additional observations from a re-analysis of the deposited data

Results flagged for a closer look

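Rps27l differed between times after HS. It was lower at 1 week than at 72 h by 1.59 on the log2 scale (-1.59, SE 0.24, limma adjusted p = 0.000178) and lower at 2 weeks than at 72 h by 1.27 (-1.27, SE 0.22, limma adjusted p = 0.000478). The values were 116 to 152 at 72 h, 41.7 and 47.4 at 1 week and 48.3 to 65.6 at 2 weeks, with no overlap. Rpl22l1 was lower at 1 week than at 72 h after HS by 1.07 (-1.07, SE 0.30, limma adjusted p = 0.0274), with 76.1 to 86.4 at 72 h and 34.7 and 43.4 at 1 week. These are direct tests of the difference between times. Of all genes 6.03% were DE at 1 week against 72 h after HS and 4.74% at 2 weeks, in either direction. No rule on the distance of a sample from the others of its group was applied, since the groups hold 2 or 3 samples. FT 1 week replicate 1, which stood apart, was left out on 1 total after the values were seen. The library sets were drawn from Fth1 within each group.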

How the results depend on the processing

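The counts of DE members against NI held under 0.1 or 1 added, a filter on low values, the median of ratios, edgeR (both tests) and DESeq2, within 1.5 times. Of the 248 called pairs of a member and a comparison, 40 were kept with columns scaled to 1 total, 22 after quantile normalization, 51 with the total without ribosomal protein genes and 232 with the library set as a term. The cause was not tested, except that scaling to the family removes its common change by construction. After quantile normalization 11, 0 and 0 members were DE after HS and 7, 5 and 0 after FT, with medians of 0.72, 0.46, 0.38, 0.70, 0.70 and 0.65 (higher and DE of all genes 6.61, 1.78, 2.31, 6.18, 2.42 and 2.86%). With the total without ribosomal protein genes there were 21, 0, 0, 12, 17 and 1, with medians of 0.81, 0.43 (HS 2 weeks), 0.77, 0.80 and 0.71 (all genes 4.03, 1.32, 1.49, 3.9, 1.59 and 1.82%). With 1 total there were 17, 0, 0, 12, 10 and 1 (medians 0.76, 0.49, 0.41, 0.72, 0.75 and 0.67), and with the set as a further term 17, 0, 0, 12, 4 and 1 (medians 0.76, 0.45, 0.41, 0.72, 0.66 and 0.67, all genes 3.76, 1.4, 1.51, 3.75, 1.4 and 1.75%). With the set alone HS 1 week had 4. Relative to the family there were 2, 0, 1, 1, 2 and 1 in either direction, with medians of -0.055, -0.027, -0.030, -0.0015, -0.057 and -0.034, and FT minus HS was -0.0059 at 1 week and 0.023 at 2 weeks. Without a fold limit HS had 11 at 1 week and 32 at 2 weeks. From 72 h to 1 week after HS the 2 DE members became 1 under each of these 5 scalings, with medians of -0.28 (1 total), -0.30 (with the set, and without ribosomal protein genes), -0.23 (quantile) and -0.0025 (family), and 10 without a fold limit. From 72 h to 2 weeks after HS the 1 DE member became 2 by DESeq2, by the edgeR likelihood ratio test and after quantile normalization (median -0.32), 0 relative to the family (median -0.0090) and 19 without a fold limit. From 72 h to 1 week after FT the 0 DE members became 1 by DESeq2, with the set as a term and without a fold limit, and from 72 h to 2 weeks 1 without a fold limit. Rplp1 at 72 h after HS turned to -0.0097 after quantile normalization and to -0.62 relative to the family, and Rpl13 to -0.32. Rpl22l1 (0.90) and Rpl3 at 2 weeks after HS (0.72) were not DE on 1 total. Without the 10 highest genes the mean share was 4.62% in NI, 8.54, 6.92 and 6.50% after HS and 7.95% at 2 weeks after FT. The alternative without mitochondrially encoded genes gave no value, since the table lists 0. With 1 replicate left out, DE members ranged from 60 to 71 (HS 72 h), 0 to 6 (HS 1 week, 0 without NI replicate 2 or either of its own), 1 to 3 (HS 2 weeks, lowest without replicate 3), 35 to 66 (FT 72 h, lowest without replicate 2), 39 to 70 (FT 1 week, lowest without replicate 3) and 32 to 69 (FT 2 weeks, lowest without NI replicate 2, and 36 without replicate 2), and on 1 total without FT 1 week replicate 1 there was 1 (median 0.55, range of medians to 1.32, and FT minus HS 0.070 to 0.60). Over time the ranges were 1 to 4 and 1 to 3 after HS and 0 to 2 after FT. The library set as a term, alone or with 1 total, and 1 total without FT 1 week replicate 1 were chosen after seeing the data. In HS 1 week a lone library was assumed to vary like the other groups. Titles share replicate numbers, but only 20 of 57 same-numbered pairs had a correlation of deviations over 0.1 (median r -0.0017), so the numbers were not taken to pair the samples. Replicates 2 of HS 72 h, HS 1 week, HS 2 weeks and FT 72 h, all with low Fth1, did deviate together (r 0.182 to 0.322). With the replicate block 68, 6, 2, 60, 54 and 57 members were DE, and 247 of the 248 pairs were kept. Members under about 5 normalised counts are limited by depth.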
